A study of Mus musculus with 3 samples.

Results

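Barcodes that held platelet and megakaryocyte transcripts were examined in droplet-based single-cell RNA sequencing of peripheral blood mononuclear cells (PBMCs) from mice. A barcode, the tag shared by all transcripts of 1 droplet, was chosen where under 50% of its UMIs (unique molecular identifiers, each counted as 1 transcript) came from the haemoglobin genes Hba- and Hbb-, and where Pf4, Ppbp, Gp9, Gp1bb and Itga2b together held at least 5 UMIs. There were 244 such barcodes, called members here, among 44212 barcodes in all and 31333 under the haemoglobin limit, called non-red barcodes. Aged mice gave 92 of them, aged-GA mice 152 and young mice 0. Because members were chosen on the UMIs of these 5 genes, their levels of the 5 genes are given as a description only.

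The 3 libraries came from female C57BL/6 mice. Young mice were 8 weeks old and aged mice 16 months old, and the labels list no treatment for either, while the methods of the study name saline given by the same route to a control group. Young mice were purchased and aged mice were bred in the laboratory, so age and source cannot be told apart. Aged-GA mice were 16 months old and received glycyrrhizic acid (GA), a saponin of licorice root, for 1 month by tail vein injection of 5 mg/kg every 2 days. Each group was 1 library. The study names 5 mice per group without stating if blood was pooled, so no test between groups was possible and a difference between groups cannot be told apart from a difference between libraries. Intervals are exact 95% binomial or Poisson intervals unless named otherwise and cover counting error only.

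Platelets are anucleate fragments shed by megakaryocytes, the large polyploid cells of the bone marrow. They keep megakaryocyte mRNA, store chemokines such as PF4 and PPBP in granules, and carry the GPIb-IX-V complex and integrin αIIbβ3 as receptors for von Willebrand factor and fibrinogen. Activated platelets expose P-selectin and are known to adhere to monocytes and neutrophils, and to a lesser extent to lymphocytes, so platelet transcripts in blood can share a droplet with a leukocyte.

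The young library held 58894294 UMIs, the aged library 82260961 and the aged-GA library 98155671. Every non-red barcode held more than 500 UMIs (the lowest barcode outside the members had 505, 502 and 501), so a free platelet with less RNA than this would not be listed. A barcode sequence that also occurred in another library was held by 84 young, 79 aged and 77 aged-GA non-red barcodes, among them 0 aged and 2 aged-GA members.

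The genes of the rule lie on 4 chromosomes of the mouse genome (GRCm38). Pf4 (ENSMUSG00000029373) at chr5:90772435-90773383 and Ppbp (ENSMUSG00000029372) at chr5:90768518-90770063, both on the plus strand, encode platelet chemokines and are separated by 2371 bases. Gp9 (ENSMUSG00000030054) at chr6:87778072-87779768, plus strand, and Gp1bb (ENSMUSG00000050761) at chr16:18620317-18622403, minus strand, encode subunits of the von Willebrand factor receptor. Itga2b (ENSMUSG00000034664) at chr11:102453297-102470122, minus strand, encodes integrin αIIb. Of Gp1bb, 1902 bases lie inside Sept5 on the same strand, so its UMIs cannot be told apart from those of Sept5 with certainty. The 250 bases before the RefSeq start of Pf4 (chr5:90772185-90772434), Ppbp (chr5:90768268-90768517) and Gp9 (chr6:87777820-87778069) are shown, all 5′ to 3′ on the plus strand, because these 3 genes are used by the rule and are nearly absent from the young library. Capitals mark the core letters of ETS factors, which with GATA1 are known regulators of megakaryocyte genes (AGGAAG, or CTTCCT on the other strand).
Pf4: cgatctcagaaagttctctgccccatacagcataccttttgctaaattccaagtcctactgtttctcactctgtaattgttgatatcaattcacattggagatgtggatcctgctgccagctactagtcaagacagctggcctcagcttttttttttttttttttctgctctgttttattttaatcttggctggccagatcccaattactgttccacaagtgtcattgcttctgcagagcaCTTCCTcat
Ppbp: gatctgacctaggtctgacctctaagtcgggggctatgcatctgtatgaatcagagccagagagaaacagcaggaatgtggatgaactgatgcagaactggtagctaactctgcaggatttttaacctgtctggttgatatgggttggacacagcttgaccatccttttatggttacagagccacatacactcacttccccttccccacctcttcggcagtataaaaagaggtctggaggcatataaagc
Gp9: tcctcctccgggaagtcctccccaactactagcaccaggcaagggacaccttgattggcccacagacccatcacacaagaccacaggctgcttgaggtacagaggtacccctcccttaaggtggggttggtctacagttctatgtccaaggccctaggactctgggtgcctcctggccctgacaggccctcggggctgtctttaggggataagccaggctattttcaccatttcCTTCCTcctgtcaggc
The letters began 9 bases before the start of Pf4 and 16 bases before that of Gp9, and were not found in the Ppbp window. They were found in 29.5% of 32851 promoter windows of the same length, and in 10 (47.6%) of the 21 platelet genes with an entry. The GATA letters AGATAA, or TTATCT on the other strand, were in none of the 3 windows shown, in 9.99% of all windows and in 3 (14.3%) of the 21. A match describes the letters only.

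Members were 0.933% (0.753 to 1.14) of the 9857 non-red barcodes of aged mice and 1.26% (1.07 to 1.48) of the 12046 of aged-GA mice. In young mice, 0 of 9430 non-red barcodes were members, which allows a share of up to 0.0318%. The shares of aged and aged-GA mice were thus 29.3-fold and 39.7-fold the limit in young mice, set at 3 barcodes of the library. Counting error of the aged and aged-GA shares is not part of these folds. Between aged-GA and aged mice, the log2 ratio of shares was 0.44 (95% interval 0.06 to 0.81, normal approximation on the log scale). This interval reached below 0 with a minimum of 3 UMIs, a log2 ratio of 0.17 (-0.12 to 0.46), and with a minimum of 10 UMIs, 0.50 (-0.02 to 1.01), so the order of aged and aged-GA mice was not settled by the counts.

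**Figure D1:**
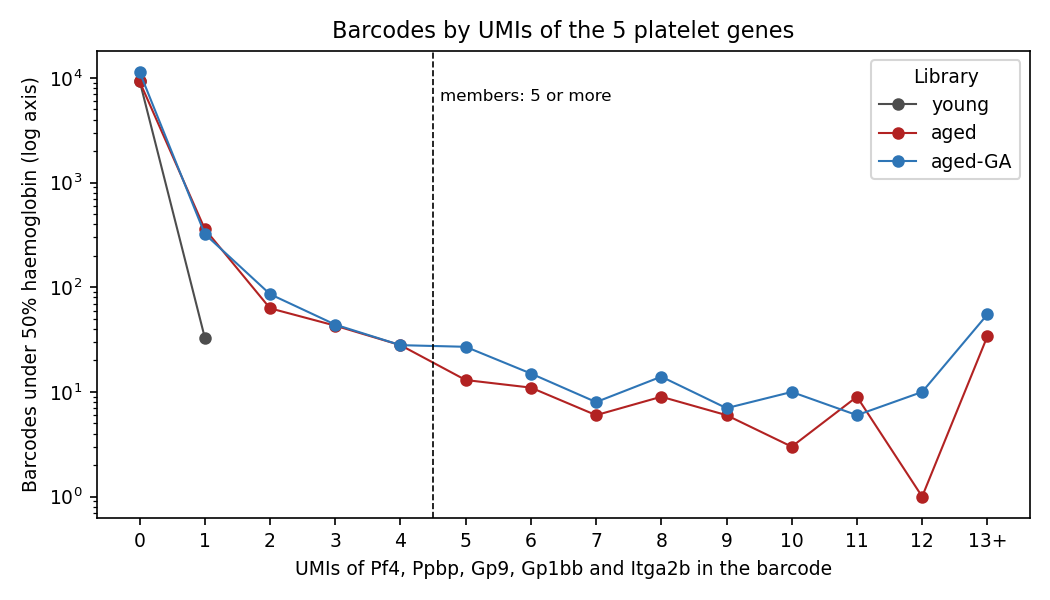
Number of non-red barcodes (log axis) by UMIs of the 5 genes of the rule, per library, with 13 or more UMIs pooled at the right and empty classes left out. No young barcode had more than 1 UMI, while in aged and aged-GA mice counts fell from 28 barcodes at 4 UMIs in each to 13 and 27 at 5 UMIs.

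Young barcodes did not come near the threshold. The highest young barcode held 1 UMI of the rule genes, and the 33 young barcodes with 1 UMI held Itga2b in 25 cases. Of these 33 barcodes, 19 carried T-cell markers and 6 carried B-cell markers. Just outside the threshold, at 4 UMIs, lay 28 barcodes of aged and 28 of aged-GA mice, with a median of 11298 and 8477 UMIs in total. Just inside it, at 5 UMIs, lay 13 and 27 barcodes, with a median of 7877 and 6097 UMIs, so members and the barcodes just below them formed a continuous range.

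The levels of the rule genes over all non-red barcodes are given next as a description, since members held 1198 of the 1925 UMIs of these genes in aged and 2393 of 3132 in aged-GA mice. Pf4 had 1 UMI in young mice, or 0.022 CPM (a gene's UMIs relative to all UMIs of the barcodes compared, 0.00056 to 0.122). It had 20.9 CPM (19.7 to 22.3) in aged and 27.1 CPM (25.9 to 28.4) in aged-GA mice. Ppbp had 0 UMIs in young mice, which allows up to 0.0659 CPM, 7.73 CPM (6.97 to 8.56) in aged and 9.15 CPM (8.43 to 9.91) in aged-GA mice. Neither chemokine gene overlapped between the young library and the others. Gp9 had 0 UMIs in young mice, 2.98 CPM (2.51 to 3.50) in aged and 3.02 CPM (2.61 to 3.47) in aged-GA mice, where the intervals of the latter pair overlapped. Itga2b had 0.549 CPM (0.356 to 0.811), 7.11 CPM (6.38 to 7.90) and 7.59 CPM (6.94 to 8.28) in young, aged and aged-GA mice. Gp1bb had 0.154, 1.05 and 0.637 CPM.

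Platelet genes that the rule did not use were examined in the same barcodes. Treml1, a receptor of platelet α-granules, had 0, 118 and 177 UMIs in young, aged and aged-GA mice, and Alox12, the platelet 12-lipoxygenase, had 0, 156 and 314 UMIs. Clec1b, the podoplanin receptor CLEC-2, had 0.022, 6.35 and 7.40 CPM. Tubb1, the β1-tubulin of the platelet marginal band, had 0, 28 and 31 UMIs. Over a list of 24 such genes, the summed level was 20.2 CPM (18.9 to 21.6) in young, 249 CPM (244 to 253) in aged and 157 CPM (154 to 160) in aged-GA mice, and 7 of the 24 genes were at 0 in young mice. The most abundant gene of the list was Itgb3 (401 UMIs) in young mice and Thbs1 in aged (6101 UMIs) and aged-GA mice (2398 UMIs). Thbs1, which encodes thrombospondin-1 and is also expressed by monocytes, gave these 6101 of the 12035 UMIs of the list in aged mice and 2398 of 10367 in aged-GA mice.

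**Figure D2:**
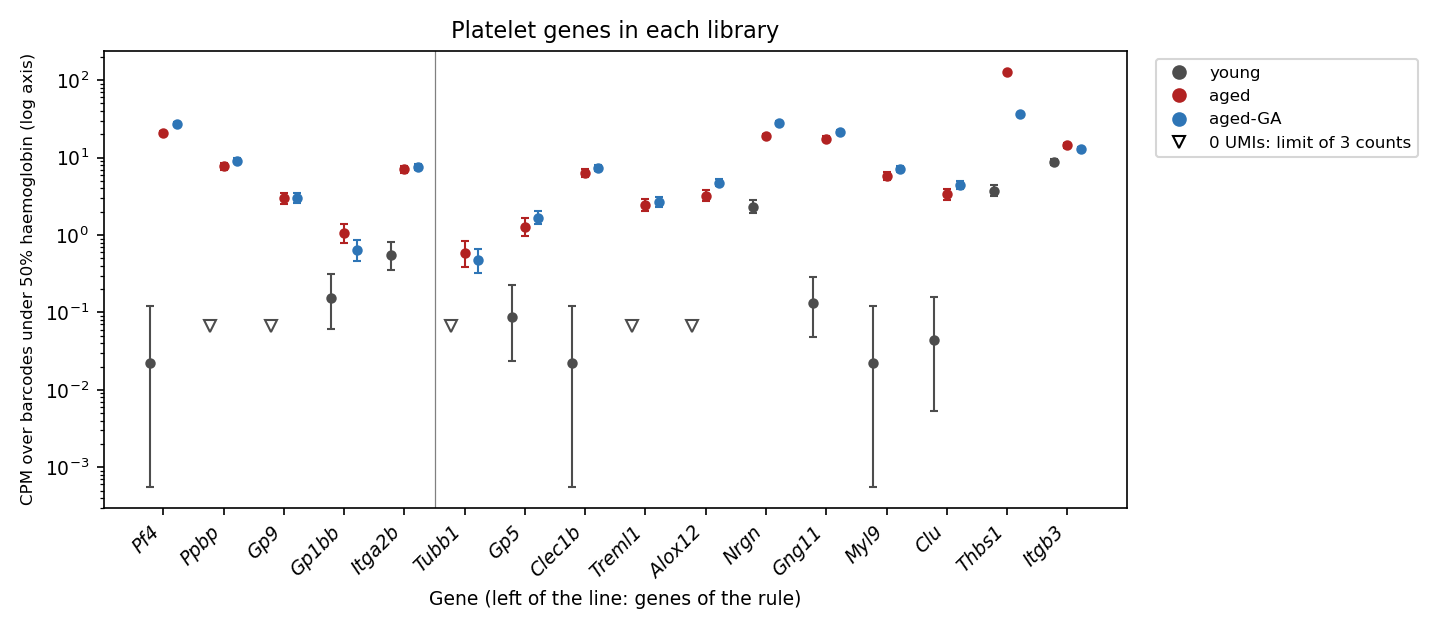
Level of 16 platelet genes in each library, as CPM over non-red barcodes (log axis), with 95% Poisson intervals as bars and open triangles at the limit of 3 counts where a gene had 0 UMIs. Pf4 lay at 0.022, 20.9 and 27.1 CPM in young, aged and aged-GA mice, whereas Itgb3 lay between 8.81 and 14.4 CPM in all 3 libraries.

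Of the markers Pf4, Ppbp, Gp9 and Tubb1, the first 3 belong to the rule, so only Tubb1 and other genes outside the rule can check the label. As a description, Pf4 was found in 90 of 92 aged members (97.8%, 92.4 to 99.7) and 151 of 152 aged-GA members (99.3%, 96.4 to 100), as against 2.54% and 2.51% of the other non-red barcodes. Ppbp was found in 79.3% and 78.3% of members, and Gp9 in 58.7% and 55.3%. Tubb1, which the rule did not use, was found in 16 aged (17.4%, 10.3 to 26.7) and 20 aged-GA members (13.2%, 8.23 to 19.6), as against 0.0922% and 0.0504% of the others. At least 3 of the 5 genes of the rule were found in 74 aged (80.4%) and 117 aged-GA members (77.0%). Over the rule and the list of 24 together, the median share of platelet UMIs in a member was 0.379% in aged and 0.540% in aged-GA mice, with a highest value of 9.37% and 12.3%. The members are therefore described as barcodes with platelet transcripts and not as platelets or megakaryocytes.

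Per member, the rule genes held a median of 10 UMIs (5 to 66) in aged and 10 (5 to 150) in aged-GA mice. The 24 genes outside the rule held a median of 21.5 UMIs in 9 genes in aged and 22 UMIs in 9 genes in aged-GA members, and a median of 0 in the other non-red barcodes of both libraries. The richest barcode of aged mice held 38 UMIs of Pf4 and 13 of Ppbp among 8188 UMIs and carried neutrophil and basophil markers. The richest of aged-GA mice held 89 UMIs of Pf4 and 23 of Ppbp among 12672 UMIs and carried T-cell, B-cell and neutrophil markers. Members held 67.9% and 77.9% of all Pf4 UMIs of non-red barcodes, and 66.8% and 78.4% of those of Ppbp.

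The proportions of the rule genes are given as a description, since the sum of these genes separated members from the remaining barcodes. Ppbp made up 26.7% (23.9 to 29.6) of the UMIs of Pf4 and Ppbp in aged members, 27.6% (23.5 to 32.0) in the other non-red barcodes and 29.8% (20.3 to 40.7) in barcodes at or over the haemoglobin limit. In aged-GA mice these values were 25.4% (23.4 to 27.4), 24.7% (21.1 to 28.6) and 24.7% (18.2 to 32.2). Itga2b made up 12.1% of rule UMIs in aged members and 27.4% in the other non-red barcodes, and 14.6% and 20.4% in aged-GA mice. In aged mice, basophil-carrying barcodes outside the members held 68 UMIs of Itga2b beside 8 of Pf4 and 1 of Ppbp.

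Members were compared with the other non-red barcodes over all genes, on summed UMIs with a pseudocount of 10 CPM. Of 8142 genes in aged mice, 4.81% were higher in members by at least 1 on the log2 scale, and of 8255 genes in aged-GA mice, 12.1% were. Of the 24 platelet genes outside the rule, 21 were higher by this measure in aged and 23 in aged-GA mice, with a median log2 ratio of 1.99 and 2.54, beside -0.02 over all genes of either library. As the genes of 1 cell type occur together, these counts describe the members and are no independent support. Within barcodes that carried myeloid markers only, 19 and 17 of the 24 were higher, with a median of 1.52 and 1.74, where 1.49% of 7521 and 1.7% of 7457 genes were. Within barcodes that carried lymphoid markers only, 14 and 17 of the 24 were higher, with a median of 2.43 and 2.14, where 18.1% of 7812 and 6.29% of 7759 genes were, over 5 aged and 16 aged-GA members. Only 14 and 19 of the 24 had any UMI in these members, and in aged mice all 14 were called higher. Clec1b, for example, had a log2 ratio of 3.26 there with 2 UMIs. Detection alone thus nearly set the lymphoid call, which is a description only. Rgs18, a regulator of G protein signalling, had a log2 ratio of 1.95 over all aged barcodes and of 1.04 over the myeloid ones. For Thbs1 the log2 ratio went from 1.66 to 0.20 in aged and from 3.47 to 0.72 in aged-GA mice.

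Among the 1186 genes at 100 CPM or more in members of both libraries, the largest ratios outside the rule were those of Nrgn, Gng11 and Clec1b. Nrgn, which encodes the calmodulin-binding protein neurogranin, had 439 CPM (401 to 480) in aged members against 9.18 in the other barcodes, and 811 CPM (764 to 859) in aged-GA members against 10.9. Gng11, a G protein γ subunit, had 418 CPM (380 to 458) against 8.29, and 636 CPM (595 to 679) against 7.71. Clec1b had 177 against 2.39 CPM, and 250 against 2.06 CPM. These 3 genes were at log2 ratios of 4.55, 4.55 and 3.91 in aged mice and 5.30, 5.19 and 4.43 in aged-GA mice. Myl9, a myosin regulatory light chain, and Clu, which encodes the granule protein clusterin, had log2 ratios of 3.79 and 3.34 in aged mice. Tsc22d1, Ctla2a, Cd9 and Tubb2a followed, and all 9 genes had a ratio of at least 1 in barcodes matched for myeloid or lymphoid markers. Of the 20 leading genes, 10 had a ratio of at least 1 in all 4 matched comparisons. The 20 were ranked on the UMIs of the same members, and the share of all 1186 genes that did so is not given. These matched ratios are therefore a description and no independent support. Ifitm1, F13a1, Ccr2, Cst3, Cxcl2 and Clec4d were among the other 10, and each had a log2 ratio under 1 in the myeloid comparison of both libraries.

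Receptors and adhesion genes were called higher in members for 10 of 21 genes in aged and 13 of 21 in aged-GA mice, where 4.81% and 12.1% of all genes were. Within barcodes that carried myeloid markers only, 12 and 11 of the 21 were higher, where 1.49% and 1.7% of genes were. Gp5, the GPV subunit, had 38.3 CPM (27.6 to 51.8) in aged and 65.4 CPM (52.8 to 80.2) in aged-GA members, and 0.423 and 0.279 CPM in the other barcodes. Gp6, the collagen receptor GPVI, had 17.3 and 33.1 CPM. Granule cargo was higher for 6 and 8 of 15 genes, cytoskeleton for 6 and 13 of 18, signalling and secretion for 7 and 11 of 19, and lipid mediator enzymes for 3 and 3 of 5, beside the same 4.81% and 12.1% of all genes. Within myeloid barcodes these counts were 3 and 3 of 15, 5 and 5 of 18, 4 and 4 of 19, and 1 and 1 of 5, and the median log2 ratio of the cytoskeleton genes in aged-GA mice was 0.32, against 1.37 over all barcodes. Vwf, the von Willebrand factor, had 46.5 and 48.5 CPM in members, while Selp, which encodes P-selectin, had 8.20 and 9.15 CPM and was under 1 on the log2 scale.

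Of 13 megakaryocyte transcription factors and progenitor genes, 3 were higher in aged and 3 in aged-GA members, beside 4.81% and 12.1% of all genes, with a median log2 ratio of 0.59 and 0.38. In barcodes with myeloid markers only, 1 and 1 were higher, beside 1.49% and 1.7%. Gata1, a factor of megakaryocyte and red cell development, had 9 UMIs over all aged members (8.20 CPM, 3.75 to 15.6) and 10 UMIs over all aged-GA members (7.04 CPM, 3.37 to 12.9). Gata2, which basophils also express, had 56.5 CPM (43.3 to 72.5) in aged and 26.0 CPM (18.3 to 35.9) in aged-GA members, and basophil markers were carried by 10 and 5 members. Of 8 cell cycle genes, 0 were called higher in either library, and Mki67, a gene of cycling cells, had 5 and 7 UMIs over all members.

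Most members also carried leukocyte markers. A barcode was said to carry a list where at least 10 UMIs came from at least 3 of its genes, a limit set after the data were seen. At least 1 of 8 leukocyte lists was carried by 88 of 92 aged members (95.7%, 89.2 to 98.8) and 131 of 152 aged-GA members (86.2%, 79.7 to 91.2), against 96.2% and 96.4% of the other non-red barcodes. In aged-GA mice the interval of members thus lay below the value of the others. Monocyte markers were carried by 59 aged members (64.1%, 53.5 to 73.9) against 14.9% of the others, and by 67 aged-GA members (44.1%, 36.0 to 52.4) against 3.67%. Neutrophil markers were carried by 48 aged members (52.2%, 41.5 to 62.7) against 10.5%, and by 93 aged-GA members (61.2%, 53.0 to 69.0) against 5.71%. Monocyte or neutrophil markers together were carried by 81 (88.0%) and 115 (75.7%) members.

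B-cell and T-cell markers were less frequent in members than in the other barcodes. B-cell markers were carried by 10 aged (10.9%, 5.34 to 19.1) and 13 aged-GA members (8.55%, 4.63 to 14.2), against 47.8% and 54.9% of the others. T-cell markers were carried by 8 aged (8.70%, 3.83 to 16.4) and 39 aged-GA members (25.7%, 18.9 to 33.4), against 26.4% and 37.3%. NK-cell markers were carried by 0 aged (0 to 3.93%) and 3 aged-GA members (1.97%, 0.409 to 5.66), against 3.78% and 3.14% of the others. Plasma cell markers were carried by 0 (0 to 3.93%) and 0 members (0 to 2.40%), against 0.655% and 0.471%. All of these intervals held the share of the others, so no lower frequency was shown for NK and plasma cell markers. Members near the limit, with 5 to under 15 UMIs of a list, numbered 13 and 23 for monocytes, 11 and 9 for neutrophils and 0 and 8 for T cells.

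**Figure D3:**
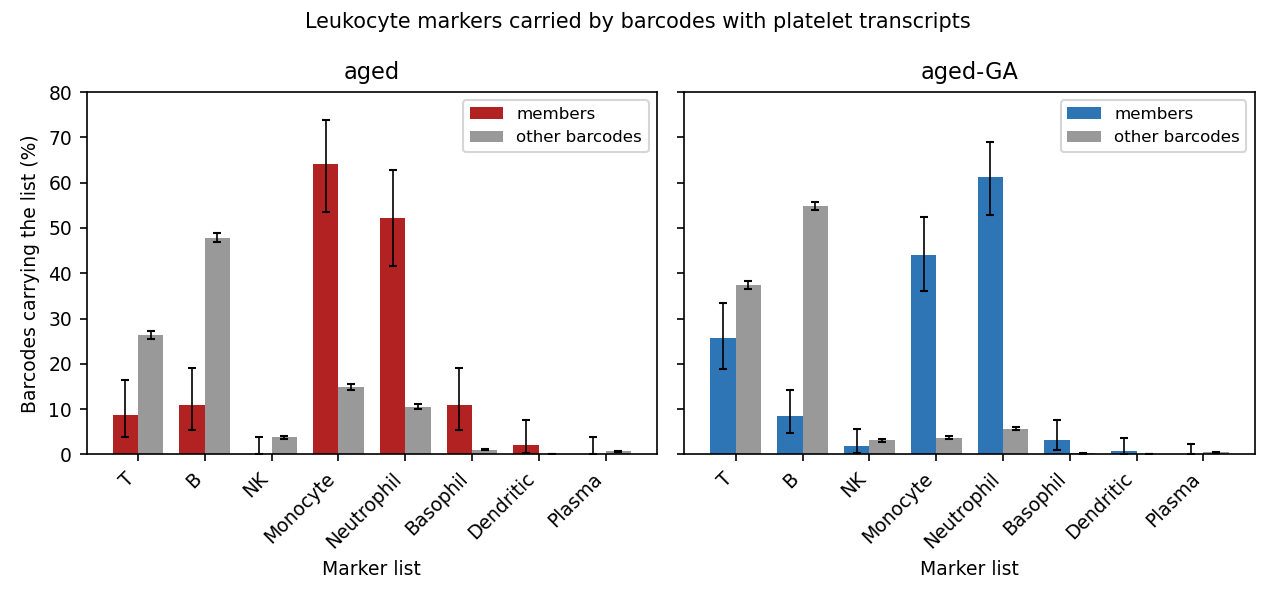
Share of members (coloured) and of other non-red barcodes (grey) that carried each of 8 leukocyte marker lists, with exact 95% binomial intervals as bars. Monocyte and neutrophil lists stood at 64.1% and 52.2% of aged and 44.1% and 61.2% of aged-GA members, and at no more than 14.9% of the other barcodes.

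By gene, the leukocyte RNA of members was led by that of monocytes and neutrophils. Lyz2, the myeloid lysozyme, had 13813 CPM in aged members against 5275 in the other barcodes and was found in 93.5% of members and 50.7% of the others. In aged-GA mice it had 9839 against 920 CPM and was found in 90.1% and 21.8%. S100a8, a calcium-binding protein of neutrophils and monocytes, had 11384 against 6255 CPM in aged and 13893 against 2676 CPM in aged-GA mice. Low numbers of such UMIs were widespread, since Lyz2 was also found in 36.7% and 15.1% of barcodes that carried lymphoid markers only, at a median of 3433 and 4354 UMIs. The monocyte receptor Csf1r was found in 64.1% of aged and 52.0% of aged-GA members, against 16.0% and 5.003% of the others. Ccr2, a chemokine receptor of classical monocytes, was found in 53.3% and 38.8%, against 14.6% and 7.69%. Csf3r, the G-CSF receptor of neutrophils, was found in 77.2% and 71.1%, against 17.4% and 8.09%, with members at higher median totals than the others throughout these comparisons. Thinned to 500 UMIs per barcode, at least 1 UMI of the monocyte list was found in 82.6% of aged members against 27.4% of the others, and in 67.8% of aged-GA members against 10.0%. For the neutrophil list these values were 59.8% against 22.5% and 69.1% against 15.03%.

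The rarer lists were carried by few members. Basophil markers were carried by 10 aged (10.9%) and 5 aged-GA members (3.29%), against 1.08% and 0.277% of the others. Hdc, the histidine decarboxylase, gave 476 of the 620 UMIs of the basophil list in aged and 948 of the 1006 in aged-GA members. It was found in 53.3% and 63.2% of members, against 12.3% and 7.21% of the others. As Hdc was found in far more members than carried the list, its UMIs are not read as basophil RNA. Mcpt8, a protease of basophils, was found in 7 (7.61%) and 5 (3.29%) members, against 0.993% and 0.235% of the others. Dendritic cell markers were carried by 2 and 1 members, and Cd209a, of monocyte-related dendritic cells, was found in 3 (3.26%) and 13 (8.55%), against 0.584% and 0.429%.

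Within neutrophil-carrying barcodes, genes of the secondary granules of immature neutrophils had lower levels in members. These members were deeper, with a median of 10717 UMIs against 2601 in the other neutrophil-carrying barcodes in aged and 9371 against 2751 UMIs in aged-GA mice, and 26 of 48 and 45 of 93 of them carried monocyte markers too. The part of depth and of RNA from a second cell type was not tested. Ngp had 180 CPM (148 to 216) in aged members against 4352 in the others, and 613 CPM (566 to 664) against 5421 in aged-GA mice. Camp had 51.6 against 3501 CPM, and 318 against 4051 CPM. These UMIs lay in few barcodes, with Ngp in 4 of 48 aged and 15 of 93 aged-GA members that carried neutrophil markers. S100a8 was also lower in these members, at 19461 against 62202 CPM in aged and 19727 against 49405 CPM in aged-GA mice. The log2 ratios were -4.52 for Ngp and -5.83 for Camp beside -1.68 for S100a8 in aged mice, and -3.12, -3.63 and -1.32 in aged-GA mice. Retnlg and Cxcr2, genes of mature neutrophils, had -1.47 and -1.17 in aged and -0.89 and -0.66 in aged-GA mice. Within monocyte-carrying barcodes, Ly6c2 and Ccr2 of classical monocytes had log2 ratios of 0.03 and 0.04 in aged and 0.27 and 0.60 in aged-GA mice, while Ace and Cd300e of patrolling monocytes had -0.52 and -0.45, and -1.52 and -1.20.

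Many members carried more than 1 list. At least 2 lists were carried by 39 aged (42.4%) and 68 aged-GA members (44.7%), and myeloid lists (monocyte or neutrophil) beside lymphoid ones (T, B or NK) by 13 and 32. The most frequent sets in aged mice were monocyte alone (25 members), neutrophil alone (17) and both (16). In aged-GA mice they were neutrophil alone (39), monocyte and neutrophil (27), no list (21), monocyte alone (12) and T with monocyte and neutrophil (10). Doublets, droplets with more than 1 cell, were called by Scrublet and kept, and 6 aged (6.52%) and 16 aged-GA members (10.5%) were called, against 4.02% and 4.78% of the other non-red barcodes.

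Members had higher median totals than the other barcodes, but not throughout their range. The median total was 10363 UMIs and 2934 genes in aged members against 3511 UMIs and 1437 genes in the others, and 7672 UMIs and 2132 genes against 4260 UMIs and 1607 genes in aged-GA mice. The lower quartile was 4147 UMIs in aged members against 2695 in the others, and 2669 against 3288 UMIs in aged-GA mice, where 23 members lay under 2000 UMIs. Members were 2.80% (1.79 to 4.18) of the aged-GA barcodes under 2000 UMIs, 0.673% (0.523 to 0.852) of those from 2000 to under 10000 UMIs and 5.45% (4.195 to 6.95) of those at 10000 UMIs or more. Among barcodes with 10000 UMIs or more, 32 of 48 aged members (66.7%, 51.6 to 79.6) carried at least 2 lists, against 39.8% (36.6 to 43.2) of 866 others, and 54 of 61 aged-GA members (88.5%, 77.8 to 95.3), against 48.0% (44.97 to 51.1) of 1058 others. Among barcodes of 2000 to under 10000 UMIs, these shares were 18.9% (7.96 to 35.2) against 5.84% in aged and 20.6% (11.7 to 32.1) against 4.81% in aged-GA mice. In both ranges the intervals of members lay above the shares of the others, while members were also deeper within a range, with a median of 4543 against 3527 UMIs in the lower range of aged and 15431 against 12665 UMIs in the upper range of aged-GA mice. The part of depth was not tested further. Myeloid beside lymphoid lists were carried by 22.9% (12.03 to 37.3) of aged members of 10000 UMIs or more against 15.2% (12.9 to 17.8) of the others, where the intervals overlapped, and by 47.5% (34.6 to 60.7) against 10.5% (8.71 to 12.5) in aged-GA mice. From 2000 to under 10000 UMIs these shares were 5.41% (0.661 to 18.2) against 1.60% in aged and 4.41% (0.919 to 12.4) against 0.956% in aged-GA mice. Among barcodes of 2000 to under 10000 UMIs, myeloid lists were carried by 83.8% (68.0 to 93.8) of aged members against 17.6% of the others, and by 77.9% (66.2 to 87.1) of aged-GA members against 6.89%.

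Read the other way, members were found chiefly among barcodes with myeloid markers. In aged mice, 68 of 2119 barcodes with myeloid and no lymphoid markers were members (3.21%, 2.50 to 4.05), as were 5 of 6978 with lymphoid and no myeloid markers (0.0717%, 0.0233 to 0.167). In aged-GA mice these were 83 of 930 (8.92%, 7.17 to 10.9) and 16 of 10379 (0.154%, 0.0881 to 0.250). The share was 44.8-fold and 57.9-fold higher in myeloid barcodes. The log2 ratios were 5.48 (4.18 to 6.79) and 5.86 (5.09 to 6.62), with intervals from a normal approximation on the log scale. After thinning to 500 UMIs, at least 1 UMI of the rule genes was found in 3.54% (2.79 to 4.42) against 0.315% (0.198 to 0.477) of these barcodes in aged mice, and in 9.03% (7.27 to 11.1) against 0.405% (0.292 to 0.547) in aged-GA mice. The share remained higher in myeloid barcodes at this fixed depth, where the minimum was also lowered from 5 UMIs to 1 UMI.

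By list, members were 59 of 1515 monocyte-carrying (3.89%, 2.98 to 4.99) and 48 of 1076 neutrophil-carrying barcodes (4.46%, 3.31 to 5.87) in aged mice. In aged-GA mice they were 67 of 504 (13.3%, 10.5 to 16.6) and 93 of 772 (12.05%, 9.83 to 14.6). Within a library, the monocyte and neutrophil intervals overlapped. Between libraries they did not, and aged-GA mice had fewer barcodes of both kinds and higher shares of members among them. Of B-cell-carrying barcodes, 0.214% (0.103 to 0.393) and 0.199% (0.106 to 0.340) were members, and of T-cell-carrying barcodes 0.309% (0.133 to 0.608) and 0.871% (0.620 to 1.19).

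The shares are also given by total UMIs. Among myeloid barcodes without lymphoid markers, members were 3 of 325 (0.923%) under 2000 UMIs, 29 of 1307 (2.22%, 1.49 to 3.17) from 2000 to under 10000 UMIs and 36 of 487 (7.39%, 5.23 to 10.1) at 10000 UMIs or more in aged mice. In aged-GA mice they were 3 of 168 (1.79%), 50 of 646 (7.74%, 5.80 to 10.1) and 30 of 116 (25.9%, 18.2 to 34.8). Among lymphoid barcodes without myeloid markers, the highest share at any of these depths was 0.235% (2 of 850 at 10000 UMIs or more in aged-GA mice), and 0 of 264 at this depth in aged mice allows up to 1.14%.

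**Figure D4:**
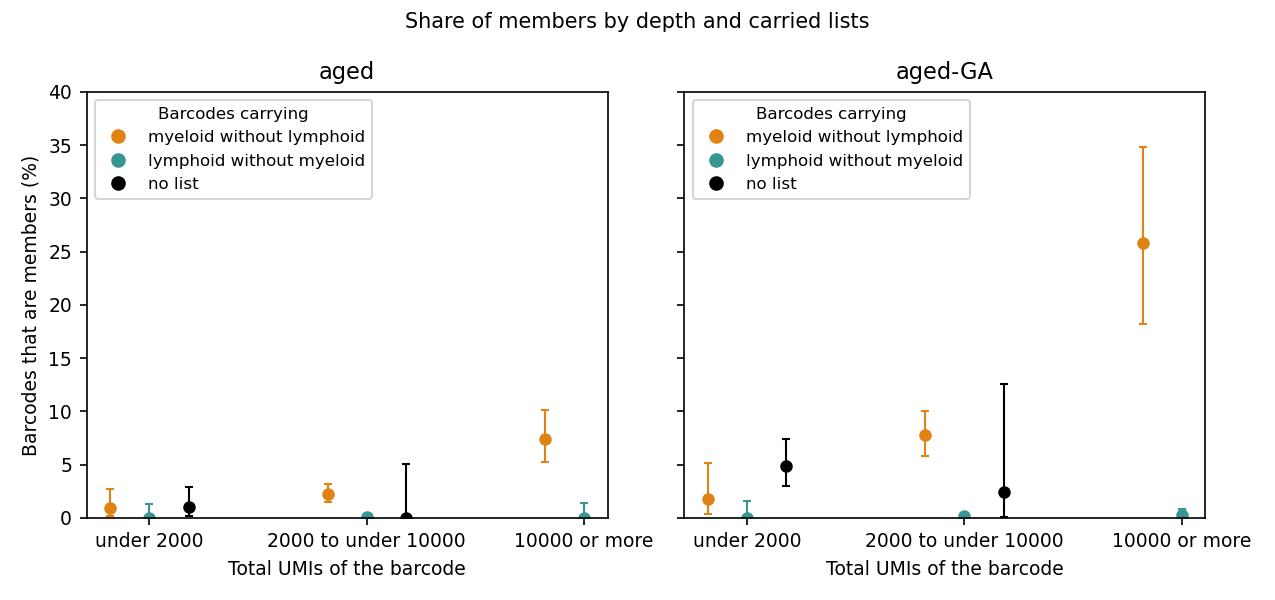
Share of barcodes that were members by total UMIs and carried lists, in aged and aged-GA mice, with exact 95% binomial intervals as bars and classes under 20 barcodes left out. Among myeloid barcodes of 10000 UMIs or more the share was 7.39% (aged) and 25.9% (aged-GA). In lymphoid barcodes it was at or under 0.235%.

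The young library held few myeloid barcodes, and this limits its comparison. Monocyte markers were carried by 74 and neutrophil markers by 19 of its 9430 non-red barcodes. Among its 70 myeloid barcodes without lymphoid markers 0 were members, which allows up to 4.29%, a limit above the 3.21% of aged and below the 8.92% of aged-GA mice. A share like that of aged mice was therefore not detectable in the myeloid barcodes of young mice. Among 8819 lymphoid barcodes without myeloid markers, 0 were members, which allows up to 0.0340%. This limit lay inside the interval of aged mice (0.0717%, 0.0233 to 0.167) and below that of aged-GA mice (0.154%, 0.0881 to 0.250). Outside the members, Pf4 was found in 0% of the young, 0.631% of the aged and 1.25% of the aged-GA lymphoid barcodes, where the median totals were 4485, 3433 and 4354 UMIs.

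Members without any leukocyte list were described apart. A list needs 10 UMIs at any depth, so a barcode with few UMIs is more likely to carry none. Under 2000 UMIs, no list was carried by 3 of 7 aged members (42.9%, 9.90 to 81.6) against 31.6% of the others. In aged-GA mice, 20 of 23 members in this range carried none (87.0%, 66.4 to 97.2), against 48.8% (45.3 to 52.3) of the others. The median total in this range was 775 UMIs in aged-GA members against 1160 in the others, and the part of depth was not tested. At all depths, members without a list numbered 4 in aged (4.35%) and 21 in aged-GA mice (13.8%). In aged-GA mice they held 516 to 2905 UMIs with a median of 739 UMIs and 354 genes, and 15 of the 21 held 986 UMIs or fewer. Their median share of UMIs in the platelet genes was 5.92%, with a range of 1.43% to 12.3%. As every member holds at least 5 UMIs of the rule, the rule sets a lowest possible share, which is higher in barcodes of few UMIs. These 21 barcodes held a median of 17 UMIs of the rule genes, above that minimum, and 31 UMIs of the platelet genes outside the rule. The part of the rule and of depth in their share was not tested. Tubb1 was found in 4 of the 21. At least 1 UMI of the monocyte list was found in 16 of them, of the neutrophil list in 15, of the T-cell list in 11, of the B-cell list in 8 and of the NK-cell list in 3. Their smallest values lay near the lower end of the deposited barcodes, so the number of such barcodes below 500 UMIs is not known.

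The 4 aged barcodes without a list held 597, 683, 961 and 10251 UMIs, of which 3.85%, 2.78%, 9.37% and 0.176% were platelet UMIs. The barcode of 683 UMIs held 58.4% mitochondrial UMIs. The barcode of 10251 UMIs gave most of the summed UMIs, and its leading genes were Gm42418 with 142 UMIs and the ribosomal protein gene Rps24 with 84 UMIs. Of 119 genes compared on summed UMIs, 37% were higher and 44.5% lower in aged-GA than in aged members without a list. All 5 platelet genes outside the rule with at least 50 UMIs in both together were higher. The 24 genes of this list held 111 UMIs in aged and 828 UMIs in aged-GA members without a list. The minimum was thus reached mainly through aged-GA members, so the count of 5 cannot decide a direction. The 3 genes with the largest ratio of aged-GA over aged mice in members without a list were Pf4 (log2 3.35), 1810058I24Rik (3.01) and Tmsb4x (2.84), which encodes thymosin β4. Pf4 belongs to the rule, so its ratio is a description only. The smallest ratios were those of Ubb (0.07), Gm42418 (0.20) and Srgn (0.47). Both rankings cover only 20 genes, which needed at least 100 UMIs and 100 CPM. The genes that were lower by at least 1 on the log2 scale lay outside these 20. Without the aged barcode of 10251 UMIs the ratios were 0.88 for Pf4, 0.67 for 1810058I24Rik and 0.68 for Tmsb4x, and the summed level of the 24 platelet genes was 43730 CPM over the 3 aged barcodes left and 39612 CPM over the 21 aged-GA barcodes. The larger ratios thus rested on 1 barcode.

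**Figure D5:**
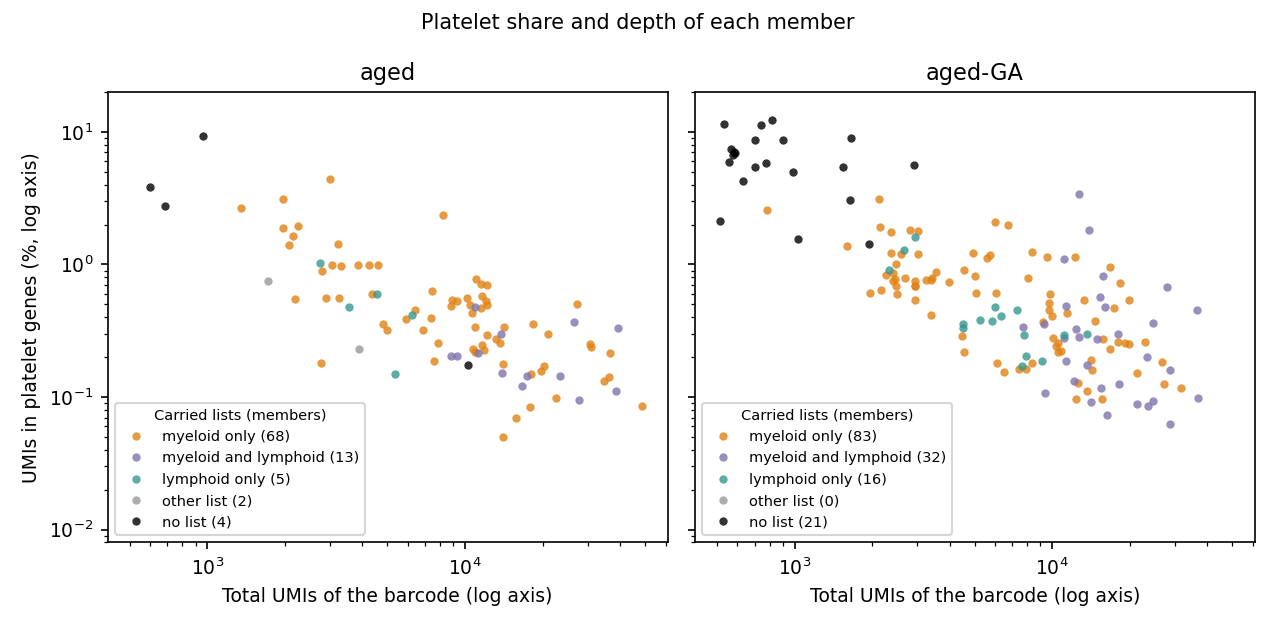
Share of UMIs in the 29 platelet genes against total UMIs for each of the 92 aged and 152 aged-GA members (both log axes), coloured by the lists carried. The 21 aged-GA members without a list lie at the upper left, from 516 to 2905 UMIs and 1.43% to 12.3%, and 1 aged member without a list lies at 10251 UMIs and 0.176%. The minimum of 5 UMIs sets a lowest possible share that falls with depth.

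Aged-GA members were compared with aged members on summed UMIs over genes with at least 50 UMIs in both together. Of 5574 genes, 1.67% were higher and 0.502% lower in aged-GA members by at least 1 on the log2 scale, or 2.17% in either direction. Of the 24 platelet genes outside the rule, 18 had enough UMIs, 0 were past this limit in either direction, and their median log2 ratio was 0.47, beside 0.03 over all genes. From aged to aged-GA members, Nrgn had 439 and 811 CPM (log2 0.87), Alox12 94.8 and 170 CPM (0.78), and Clec1b 177 and 250 CPM (0.48). Thbs1, at 400 and 413 CPM, and Itgb3, at 97.5 and 101 CPM, differed by less than counting error. The lower total of aged-GA members and their larger share without a list moved with these levels, and their part was not tested.

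In members with myeloid and no lymphoid markers, 2.07% of 3957 genes were higher and 0.91% lower in aged-GA members, or 2.98% in either direction, and of the 24 genes 14 had enough UMIs, 0 were past 1, and the median was 0.25. Of these genes, Nrgn had a log2 ratio of 0.73 and Clec1b -0.01. The median total of these members was 10564 UMIs in aged and 6488 in aged-GA mice. In such sums, more platelets in a droplet cannot be told apart from more RNA per platelet.

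Among the receptors and adhesion genes, 1 of 11 compared was past 1, beside 1.67% of all genes higher and 2.17% in either direction, namely Itga6, the integrin α6 of the laminin receptor, with 61.1 CPM (47.3 to 77.6) in aged and 149 CPM (130 to 171) in aged-GA members (log2 1.16). Among granule cargo genes, 1 of 9 was, Ccl5, a chemokine stored in platelets and made by T and NK cells, with 159 CPM (136 to 184) and 1106 CPM (1052 to 1162, log2 2.73). T-cell markers moved with both genes, with a summed level of 289 CPM over aged and 995 CPM over aged-GA members. Their part was not tested. With myeloid markers only, the log2 ratio was 0.69 for Itga6 and 1.36 for Ccl5. None of the 16 cytoskeleton, 17 signalling and secretion, 3 lipid mediator and 6 transcription factor or progenitor genes tested was past 1 in either direction. F13a1, coagulation factor XIII, also of monocytes, was lower in aged-GA members at 531 and 336 CPM (log2 -0.64), and monocyte markers, carried by 64.1% and 44.1% of members, moved with it. Their part was not tested.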

How the data were processed

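Blood mononuclear cells of the 3 groups were measured with the 10x Genomics 3′ version 3 kit, 1 library each. The authors deposited UMI counts, not normalised, for each gene and barcode. Matrix headers name Cell Ranger 5.0.0 and the submitters' processing notes the build mm10. Members and marker lists were chosen with earlier results of these data known. UMIs were summed over barcodes and scaled to CPM, and log2 ratios took a pseudocount of 10 CPM. Genes named were those of the rule, the markers, the lists, the 3 of largest and smallest ratio between libraries in members without a list (at least 100 UMIs and 100 CPM), and the 20 of largest ratio of members over others in both libraries with members, ranked by the smaller ratio. Sept5 and Ly6c2 were named after their values were seen. No test between groups was run, as each was 1 library. The code for ratios was checked on simulated counts with known ratios. Doublets were called with Scrublet (scanpy 1.11.5). A filter as in the study (200 genes or more, up to 90% of the largest gene number, up to 7.5% mitochondrial UMIs) served as an alternative, which 86 aged and 148 aged-GA members passed. Promoter sequences are from RefSeq (GRCm38.p6).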

Additional observations from a re-analysis of the deposited data

Results flagged for a closer look

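Barcodes at or over the haemoglobin limit, which lie outside the members, also held platelet transcripts. At least 5 UMIs of the 5 genes were found in 3 of 6181 such barcodes in aged mice (0.0485%, exact 95% interval 0.0100 to 0.142) and in 7 of 5286 in aged-GA mice (0.132%, 0.0533 to 0.273). In young mice they were found in 0 of 1412, which allows up to 0.212%, a limit above both shares. Over all of these barcodes the 5 genes held 0 UMIs in young mice, which allows up to 0.224 CPM. They held 125 UMIs (3.69 CPM) in aged and 213 UMIs (6.61 CPM) in aged-GA mice. These levels were 16.5-fold and 29.5-fold the young limit of 3 counts in the library, without counting error of the aged and aged-GA levels. Of the 3 and 7 barcodes with at least 5 UMIs of the 5 genes, 1 in aged and 2 in aged-GA mice carried a leukocyte list.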

How the results depend on the processing

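No paired analysis was possible because each group was 1 library. Of 66 values recomputed under an alternative, 54 kept their place and 12 moved. Of the log2 ratios among them, 0 changed sign. The shares in percent cannot fall below 0, so no change of direction was possible for them. The share of members was 1.65% in aged and 1.86% in aged-GA mice with a minimum of 3 UMIs, 0.477% and 0.672% with a minimum of 10 UMIs, and 0.592% and 0.917% with no haemoglobin limit and all barcodes as denominator. Thinned to 500 UMIs, with at least 1 UMI of the rule genes, it was 0.0848% in young and 1.29% in aged mice. With a carrying minimum of 20 UMIs, 89.1% of aged members carried a list. With a minimum of 10 UMIs, the log2 ratio of myeloid over lymphoid barcodes was 7.08 in aged mice. The median log2 ratio of the platelet list, aged-GA over aged, was 2.38 in members without a list and 0.13 there without the aged barcode of most UMIs, over 5 genes each. The latter alternative, the log2 ratio of myeloid over lymphoid barcodes, the rule without Gp1bb and Itga2b, shared barcodes left out and the 2 richest members of each library left out were chosen after seeing the data. The log2 ratio of shares, aged-GA over aged, ranged from 0.17 to 0.63, and its interval also reached below 0 after thinning (0.17, -0.15 to 0.50), without called doublets (0.38) and without Gp1bb and Itga2b (0.39). With 1 library per group, depth sets counting error only and no replicate could be left out.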
